A study of Rattus norvegicus with 16 samples.

Results

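The potassium channel genes of the rat were followed in Schwann cells and in whole sciatic nerve before and after a crush. They were taken by name, as every gene whose symbol consists of Kcn, letters and a closing number, and 93 of the 31038 genes in the deposited tables met this rule. By subfamily, 40 encode voltage-gated subunits, 15 inward rectifiers, 14 two-pore channels, 8 calcium-activated channels and 16 auxiliary subunits. The sodium-activated channels Kcnt1 and Kcnt2 were placed with the calcium-activated class because they belong to the same gene family.

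The 16 libraries fall into 8 groups of 2, with Schwann cells and whole nerve each taken uncrushed and 3, 5 and 7 days after a crush. The labels give all rats, uncrushed ones included, as postnatal day 18, which the study's methods give as the age at surgery. The left nerve was crushed at mid-thigh, no sham operation was made, and the nerve distal to the crush, or the matching stretch of an uncrushed nerve, was taken. Each library pooled at least 10 nerves, so a library stands for a pool of rats and not for 1 animal. Schwann cells were dissociated with collagenase and dispase, depleted of cells bearing CD45 or Thy1 and then selected on the surface antigen O4, whereas whole nerve was extracted without dissociation, so in these libraries the tissue and the dissociation cannot be told apart. The study also profiled dissociated nerve, which was not analysed here. With uncrushed nerves taken at that age, crushed nerves came from rats 3, 5 or 7 days older, so age and time after crush cannot be told apart.

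Voltage-gated potassium channels open when a membrane depolarizes and return it to rest. In myelinated nerve, the Kv1 channels lie in the axon beneath the myelin at the juxtaparanode, next to the paranode on its internodal side. Inward rectifiers and two-pore channels hold the resting potential, and in glia the inward rectifier Kir4.1 takes up the potassium that active axons release. Calcium-activated channels open on a rise of calcium inside the cell, and auxiliary subunits set the gating and the traffic of the pore-forming ones.

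Libraries held between 10555067 and 27562637 expected counts. Levels are given as FPKM (fragments per kilobase of transcript, scaled to the fragments of the library) divided by the TMM factor of the library, which was 0.82 in both uncrushed whole nerve libraries and between 0.994 and 1.07 in the others. Tests used counts, with no length term, whereas FPKM divides by a transcript length, so levels and fold changes can differ in size. A gene was called, and is said to have risen or fallen, when its adjusted p in the quasi-likelihood test of edgeR was under 0.05. With 2 libraries against 2, an exact permutation test of a single value cannot go below 0.333. In Schwann cells the summed FPKM of 8 macrophage markers lay between 2.94 and 14.5, against 155 to 559 in whole nerve. Endothelial markers summed to 1.15 to 5.88 in Schwann cells and to 100 to 123 in whole nerve. The 6 pericyte and smooth muscle markers summed to 55.1 and 63.1 in uncrushed Schwann cells and to 9.82 to 21.8 after crush. In whole nerve they summed to 312 to 398. Pdgfrb alone was 29.2 and 32.5 in uncrushed Schwann cells, above the 10.5 and 12.8 of uncrushed whole nerve. Of the 6 markers, 1 was called higher in uncrushed Schwann cells than in whole nerve and 3 lower. Fibroblast markers differed among themselves: Dcn was 2.94 to 18.0 in Schwann cells and 2077 to 3023 in whole nerve and Pdgfra 0.0844 to 0.603 and 34.6 to 47.2, while Col1a1 was 138 to 298 and 1218 to 2147. Col1a2 went the other way, at 240 and 12.8 in uncrushed Schwann cells against 0.0244 and 0 in uncrushed whole nerve, and at 0 in several other whole nerve libraries. In whole nerve, 4 skeletal muscle markers summed to 494 in uncrushed replicate 2, to 32.7 in uncrushed replicate 1 and to 5.19 to 45.9 after crush. In these bulk samples, fewer cells of a type and less RNA per cell cannot be told apart.

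Most of the potassium channel RNA of an uncrushed nerve came from a few genes, and most of it was gone 3 days after the crush. The FPKM of the 93 members summed to 313 and 339 in uncrushed Schwann cells and had dropped to 69.9 and 70.2 by day 3. The day 5 sums were 67.2 and 72.5, and those of day 7 were 116 and 103. In whole nerve they were 391 and 476 before the crush, 88.9 and 85.7 at day 3, 101 and 96.1 on day 5, and 123 and 142 at day 7. The uncrushed libraries of each tissue lay above all of its crushed libraries. Kcnd3, Kcna1 and Kcna2 held 65.1% of the sum in uncrushed Schwann cells, and Kcna1, Kcna2 and Kcnk1 held 74.9% in uncrushed whole nerve.

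The classes did not move alike. Voltage-gated members summed to 228 and 251 in uncrushed Schwann cells and to 30.6 to 58.3 after crush. Two-pore members went from 34.0 and 34.3 to between 3.85 and 6.55. The inward rectifiers dropped to 8.82 and 8.42 at day 3 from 33.3 and 36.6, and their sum was 37.2 and 32.1 at day 7, of which Kcnj10 made up most. Without Kcnj10 the class summed to 14.2 and 14.6 before the crush, 5.13 and 5.03 at day 3, and 5.66 and 8.17 at day 7. The calcium-activated class lay between 4.81 and 6.31 in all 8 Schwann cell libraries, with uncrushed and crushed libraries overlapping. Auxiliary subunits summed to 11.9 and 11.4 in uncrushed Schwann cells and to 7.17 to 10.9 after crush.

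**Figure D1:**
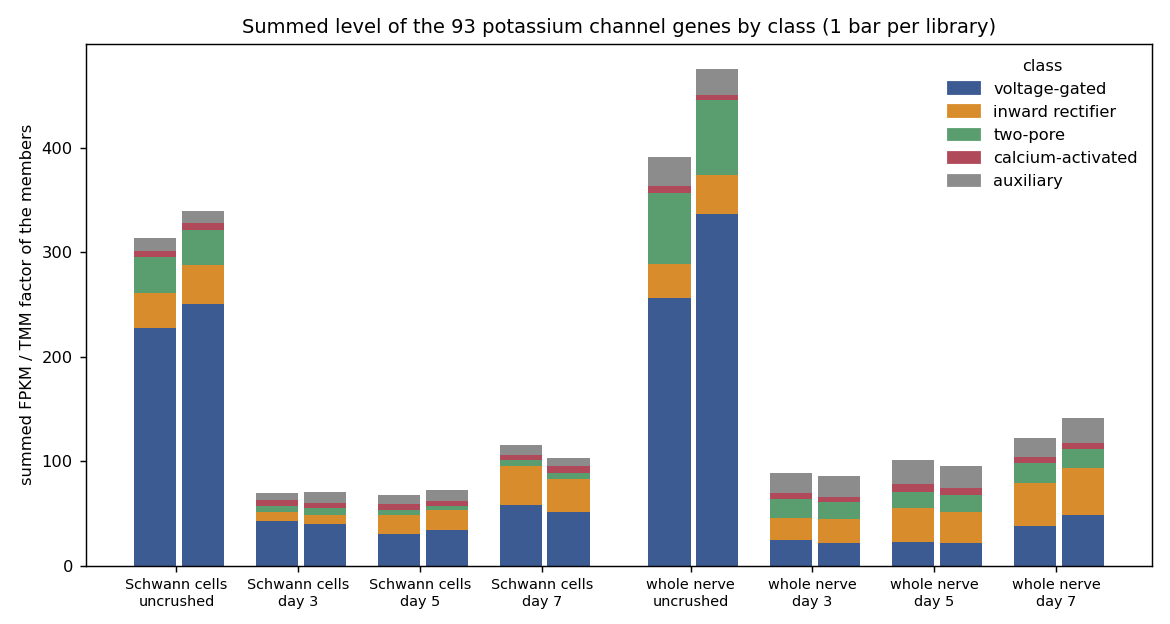
Summed FPKM of the potassium channel genes, divided by the TMM factor of the library, with 1 bar per library and the 5 classes stacked. The uncrushed bars reach 313 and 339 in Schwann cells and 391 and 476 in whole nerve, and in Schwann cells the voltage-gated segment goes from 228 and 251 to 42.6 and 39.9 at day 3.

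Of the 93 members, 38 passed the filter on low counts in Schwann cells and 52 in whole nerve. Among these, 2 were tested in Schwann cells alone and 16 in whole nerve alone, and the other 39 members were tested in neither. At 3 or fewer counts in every one of the 16 libraries were 22 members, and Kcnk15, Kcns1, Kcns2 and Kcnu1 were at 0 in all. Kcna3, the Kv1.3 channel of lymphocytes and macrophages, reached at most 6 counts.

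At day 3, 18 of the 38 members tested in Schwann cells had fallen and 4 had risen, where 25.7% of all genes tested had fallen and 26.9% had risen. Day 5 gave 16 lower and 5 higher members, against 25.6% and 29.0% of all genes. At day 7, 11 were lower and 6 higher, against 21.9% and 25.0%, and with DESeq2 the split was 10 lower and 3 higher. The median member log2 fold change was -1.04, -0.68 and -0.65 on the 3 days, and the median of all genes was 0.00, 0.06 and 0.06. A total of 28 of the 38 were called on at least 1 day, where 67.9% of all genes were. Among the 10 members that fell on all 3 days were Kcna1, Kcna2, Kcnd3, Kcnh8, Kcnj11, Kcnj13, Kcnk1, Kcnk6 and Kcnn3, and Kcng1, Kcnh1 and Kcnt1 rose on all 3. Of all genes, 16.3% fell and 18.6% rose on all 3 days.

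Falls led among the voltage-gated subunits of Schwann cells. At day 3, 9 of the 14 tested fell and 2 rose, on day 5 it was 7 and 3, and at day 7 it was 5 and 2. Of all genes 25.7% fell and 26.9% rose at day 3, 25.6% and 29.0% on day 5, and 21.9% and 25.0% at day 7. Kcna1 encodes Kv1.1, a subunit of the juxtaparanodal channel. In Schwann cells its FPKM was 68.3 and 74.6 before the crush, 8.47 and 9.80 at day 3, 7.73 and 9.30 on day 5, and 23.4 and 17.8 at day 7. No crushed library reached the uncrushed ones, and both day 7 libraries lay above those of days 3 and 5. Its log2 fold change was -2.93 at day 3 (SE 0.160, adjusted p 4.78e-07), -3.06 on day 5 (SE 0.162, adjusted p 5.43e-07) and -1.77 on day 7 (SE 0.152, adjusted p 1.46e-05). In whole nerve it stood at 147 and 189 before the crush, 7.92 and 4.29 at day 3, 3.34 and 4.59 on day 5, and 14.5 and 19.6 at day 7. There Kcna1 changed by -4.86 on the log2 scale at day 3 (SE 0.271, adjusted p 2.88e-07), by -5.50 on day 5 and by -3.39 at day 7. The 5 neuronal markers summed to 14.3 and 15.3 in uncrushed whole nerve and to 5.50 to 10.0 after crush, with Rbfox3 at 3 or fewer counts throughout; their part in this fall was not tested.

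Kcna2, which encodes the Kv1.2 partner of Kv1.1, fell furthest at day 3 and then climbed. It measured 60.1 and 65.4 in uncrushed Schwann cells, 1.14 and 1.06 at day 3, 4.20 and 3.28 on day 5, and 19.5 and 15.3 at day 7. Each day's libraries stood above those of the day before it, and all stayed below the uncrushed ones. On the log2 scale Kcna2 changed by -5.99 at day 3 (SE 0.192, adjusted p 4.97e-08), by -3.85 on day 5 and by -1.78 at day 7 (adjusted p 1.96e-07 and 1.55e-05). Between day 3 and day 7 Kcna2 rose by 4.20 (SE 0.18, adjusted p 2.10e-06). Whole nerve held 87.6 and 126 FPKM before the crush, 2.14 and 1.47 at day 3, 3.32 and 3.16 on day 5, and 13.0 and 15.7 at day 7. The order of the days was the same there, and Kcna2 had log2 fold changes of -5.97, -5.07 and -3.0 (adjusted p 1.11e-08, 2.87e-08 and 7.97e-07).

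Kcnd3, the Kv4.3 subunit of A-type channels, was with Kcna1 among the most abundant members in uncrushed Schwann cells and did not recover within the week. It stood at 68.3 and 88.4 before the crush, 19.4 and 15.1 at day 3, 7.96 and 9.26 on day 5, and 5.28 and 6.51 at day 7. Each day's libraries lay below those of the day before. Its log2 fold change was -2.16 at day 3 (SE 0.171, adjusted p 5.53e-06), -3.17 on day 5 (adjusted p 8.13e-07) and -3.73 on day 7 (SE 0.185, adjusted p 5.92e-07). From day 3 to day 7 Kcnd3 changed by -1.57 (adjusted p 2.85e-04). Whole nerve held less of it, 10.5 and 12.4 before the crush and 2.02 to 4.52 after. There Kcnd3 changed by -1.55 at days 3 and 5 and by -2.42 at day 7 (adjusted p 1.30e-05, 1.81e-05 and 1.88e-06). Kcnh8, an Elk-type voltage-gated channel, went from 24.3 and 16.9 in uncrushed Schwann cells to 1.59 and 1.77 at day 3, 1.31 and 1.16 on day 5, and 2.38 and 2.12 at day 7. All 6 crushed libraries were far below the uncrushed pair. The log2 fold changes of Kcnh8 were -3.58, -4.04 and -3.17 (adjusted p 4.32e-07, 4.06e-07 and 1.77e-06). In whole nerve Kcnh8 changed by -2.77 at day 3 (-3.41 without day 3 replicate 2), and its values of -1.80 on day 5 and -1.83 at day 7 were not called without day 5 replicate 2 (-1.44, adjusted p 0.0745) and without day 7 replicate 1 (-1.33, adjusted p 0.0774). Without day 7 replicate 2 the day 7 value was -2.51. Named after its values were seen, the silent modifier Kcns3 (Kv9.3) went from 1.62 and 1.01 to 0.386 and 0.312 at day 3 (-1.90, adjusted p 0.0106), not called without uncrushed replicate 1 (adjusted p 0.0831) or day 3 replicate 2 (adjusted p 0.0708). Kcng2, another silent modifier named in the same way, was at 0 counts in both day 3 libraries and at least 6.90-fold lower than before the crush.

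Kcng1 and Kcnh1 rose after the crush in both tissues, from the floor except for Kcnh1 in whole nerve. Kcng1 encodes Kv6.1, a subunit that forms no channel alone and modifies Kv2 channels. Its counts were 2 and 2 in uncrushed Schwann cells, 327 and 563 at day 3, 234 and 285 on day 5, and 140 and 144 at day 7. In FPKM this was 0.0579 and 0.0401, 8.39 and 8.39, 4.86 and 6.64, and 3.07 and 4.40. The uncrushed libraries were at the floor of 3 counts or fewer, and every crushed library was above them. Against that floor, taken in each library, Kcng1 was at least 92.2-fold higher at day 3, 63.6-fold on day 5 and 41.3-fold at day 7 (adjusted p 4.04e-07, 1.10e-06 and 4.07e-06). From day 3 to day 7 it decreased by 1.18 on the log2 scale (SE 0.208, adjusted p 0.00348). In whole nerve Kcng1 had 1 and 0 counts before the crush, 178 and 230 at day 3, 83 and 87 on day 5, and 60 and 48 at day 7, at least 34.8-fold, 17.5-fold and 13.6-fold higher. Kcnb2, a Kv2 gene it can partner, had 5 and 9 counts in uncrushed Schwann cells and at most 1 after crush, and in whole nerve 11 and 12 counts before and 4 to 13 after.

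Kcnh1 encodes Kv10.1 (Eag1), a channel known from proliferating cells. It had 2 and 2 counts in uncrushed Schwann cells, 74 and 113 at day 3, 74 and 78 on day 5, and 72 and 40 at day 7. All crushed libraries were above the floor that both uncrushed ones met. Kcnh1 was at least 19.7-fold, 18.6-fold and 15.4-fold higher (adjusted p 8.15e-06, 1.09e-05 and 2.48e-05). Its level stayed low, at 0.413 to 0.633 FPKM after crush. In whole nerve it went from 0.0976 and 0.0243 to 0.40 and 0.361 at day 3, 0.405 and 0.374 on day 5, and 0.168 and 0.322 at day 7. Kcnh1 rose there by 2.54 and 2.52 at days 3 and 5, and by 4.44 and 4.43 without uncrushed replicate 1, or 1.92 and 1.90 without uncrushed replicate 2. Without uncrushed replicate 1 the reference is replicate 2, near the floor at 0.0243 FPKM. The size of each value from that fit, also at day 7, therefore depends on the prior count. The day 7 rise of 1.72 in whole nerve (adjusted p 0.0423) became 3.62 without uncrushed replicate 1 and was not called with DESeq2 (adjusted p 0.0649), without uncrushed replicate 2 (1.10, adjusted p 0.161) or without day 7 replicate 2 (1.37, adjusted p 0.186). Kcna6, the Kv1.6 subunit, rose in Schwann cells on day 5, from 0.0386 and 0.0601 to 0.232 and 0.358 (log2 2.52, SE 0.549, adjusted p 0.00362). The days 3 and 7 values of Kcna6 were 1.29 and 1.27 (adjusted p 0.0839 and 0.103). Day 5 was not tested against them.

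**Figure D2:**
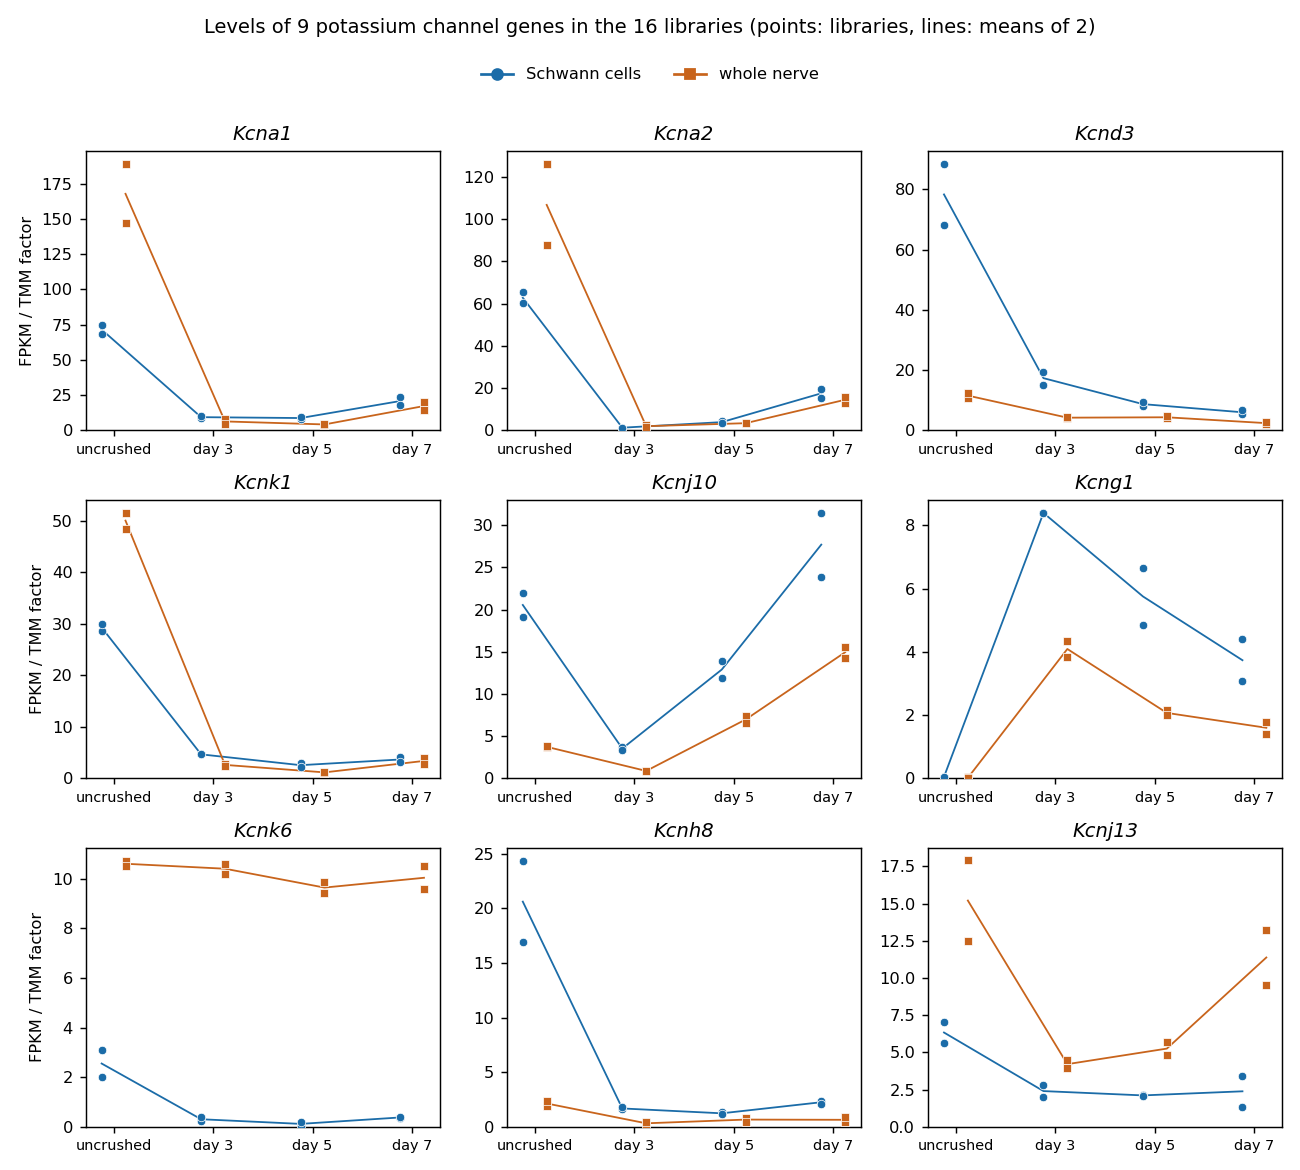
FPKM divided by the TMM factor of the library for 9 potassium channel genes against days after crush, with 1 panel per gene, a linear axis from 0, points for libraries and lines through the group means. Schwann cells are blue circles and whole nerve orange squares. Kcna1, Kcna2, Kcnd3, Kcnk1 and Kcnh8 drop at day 3, Kcnj10 drops and returns, Kcng1 is near 0 before the crush and present after it, and Kcnk6 stays at 9.42 to 10.7 in whole nerve while falling in Schwann cells.

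The promoters of 4 members with these contrasting courses are shown: 2 that fell (Kcna2, Kcnd3), 1 that fell and returned (Kcnj10) and 1 that rose (Kcnh1). They are the 250 bases before the transcript start in RefSeq, assembly GRCr8, on the plus strand, at chr2:197393280-197393529, chr2:195626066-195626315, chr13:87334260-87334509 and chr13:106252966-106253215 in that order. Capitals mark the SOX motif ACAAAG read on either strand, which occurs in 16% of the 27457 promoters of the table.
Kcna2: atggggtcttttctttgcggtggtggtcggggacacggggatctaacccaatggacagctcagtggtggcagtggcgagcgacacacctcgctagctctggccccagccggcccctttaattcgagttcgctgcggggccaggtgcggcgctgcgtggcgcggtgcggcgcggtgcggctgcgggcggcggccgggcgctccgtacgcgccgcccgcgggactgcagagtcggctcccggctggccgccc
Kcnd3: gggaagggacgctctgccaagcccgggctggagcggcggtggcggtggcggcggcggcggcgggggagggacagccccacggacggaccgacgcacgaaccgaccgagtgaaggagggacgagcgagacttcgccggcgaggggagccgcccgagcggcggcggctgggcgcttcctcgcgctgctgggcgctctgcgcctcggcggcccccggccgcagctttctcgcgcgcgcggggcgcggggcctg
Kcnj10: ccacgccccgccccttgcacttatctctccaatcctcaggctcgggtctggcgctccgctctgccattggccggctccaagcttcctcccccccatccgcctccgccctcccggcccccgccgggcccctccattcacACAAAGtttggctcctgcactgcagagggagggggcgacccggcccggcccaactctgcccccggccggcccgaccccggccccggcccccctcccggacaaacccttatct
Kcnh1: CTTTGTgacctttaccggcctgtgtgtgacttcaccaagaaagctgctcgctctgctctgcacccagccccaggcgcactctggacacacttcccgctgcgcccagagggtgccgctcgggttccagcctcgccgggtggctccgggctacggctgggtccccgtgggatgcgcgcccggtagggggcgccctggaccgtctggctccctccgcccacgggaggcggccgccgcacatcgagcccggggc

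All 4 were rich in G and C, at 72.4% for Kcna2, 79.6% for Kcnd3, 72.4% for Kcnj10 and 71.6% for Kcnh1, against a median of 52.0% over all promoters. The AP-1 motif TGANTCA (6.36% of all promoters), the EGR motif GCGNGGGCG (4.53%) and the TEAD motif GGAATG (11.8%) were also searched on both strands, and none of these letters occurred in the 4 windows. Among the 63 members with a promoter in the table, 8 held the SOX letters, 2 the AP-1, 4 the EGR and 7 the TEAD letters. A match of letters is a description and no evidence of binding. Kcna1, Kcnk1, Kcnk6 and Kcng1 are named only.

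Most of the inward rectifiers tested in Schwann cells fell at days 3 and 5, and Kcnj10 rose again by day 7. Kcnj2 and Kcnj14 were called on no day. Of 7 tested, 5 fell at day 3, 4 fell on day 5, and 2 fell and 1 rose at day 7, against the 25.7%, 25.6% and 21.9% of all genes that fell on these days and the 25.0% that rose at day 7. Kcnj10 encodes Kir4.1, the potassium uptake channel of glia. It measured 19.1 and 22 in uncrushed Schwann cells, 3.69 and 3.39 at day 3, 11.9 and 13.9 on day 5, and 31.5 and 23.9 at day 7. The day 3 and day 5 libraries lay below the uncrushed pair, and both day 7 libraries lay above it. Kcnj10 changed by -2.52 on the log2 scale at day 3 (SE 0.167, adjusted p 1.69e-06) and by -0.68 on day 5 (SE 0.153, adjusted p 0.00419). At day 7 it was 0.43 higher than in uncrushed cells (SE 0.150, adjusted p 0.0401), a call that was lost with DESeq2 (adjusted p 0.0931), without uncrushed replicate 1 (0.33, adjusted p 0.172) and without day 7 replicate 1 (0.23, adjusted p 0.292). The rise from day 3 to day 7 was 2.95 (SE 0.168, adjusted p 6.81e-06). Whole nerve held 3.70 and 3.79 before the crush, 0.917 and 0.854 at day 3, 7.38 and 6.58 on day 5, and 14.3 and 15.6 at day 7. There the day 5 and day 7 libraries exceeded the uncrushed ones. Kcnj10 changed by -2.12 at day 3 and rose by 0.78 on day 5 and 1.88 at day 7 in whole nerve (adjusted p 4.22e-06, 0.00202 and 6.24e-06).

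Kcnj13 encodes Kir7.1, a low-conductance inward rectifier. It stood at 7.02 and 5.65 in uncrushed Schwann cells, 2.83 and 1.97 at day 3, 2.15 and 2.07 on day 5, and 1.33 and 3.44 at day 7. All 6 crushed libraries were below the uncrushed ones. Mean FPKM went from 6.34 to 2.40 at day 3, whereas the test on counts gave a 1.86-fold change. Kcnj13 changed by -0.89 at day 3 (adjusted p 0.0136), by -1.44 on day 5 and by -1.41 at day 7 (adjusted p 0.00122 and 0.00178), and the day 3 call was lost without day 3 replicate 2 (-0.61, adjusted p 0.123). In whole nerve Kcnj13 went from 12.5 and 17.9 to 4.50 and 3.92, then 4.84 and 5.67, then 9.55 and 13.2. Its log2 fold changes there were -1.70 and -1.59 at days 3 and 5, and the day 7 libraries overlapped the uncrushed ones. The record of Gigyf2 overlaps that of Kcnj13 on the other strand. Whether their exons overlap was not checked, and the strand used in counting is not given in the sources used here. Reads of Gigyf2 may therefore be among the counts of Kcnj13.

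Kcnj11 and its partner Abcc8 fell together in Schwann cells. Kcnj11 encodes Kir6.2, the pore of an ATP-sensitive channel whose regulatory subunit SUR1 is encoded by Abcc8. Kcnj11 measured 1.13 and 1.17 in uncrushed cells, 0.0198 and 0.0101 at day 3, 0.193 and 0.207 on day 5, and 0.351 and 0.281 at day 7. Its day 3 libraries had 1 count each, and it was at least 21.9-fold lower than before the crush (adjusted p 3.27e-05). Its log2 fold changes at days 5 and 7 were -2.54 and -1.88 (adjusted p 0.00104 and 0.00569). Abcc8 went from 0.540 and 0.441 to 0 and 0.0101 at day 3, and its later log2 fold changes were -2.40 and -2.62 (adjusted p 0.00550 and 0.00525). In whole nerve Kcnj11 was at least 10.5-fold lower at day 3 and changed by -3.13 on the log2 scale on day 5 (adjusted p 0.0108). The day 5 value there was -2.73 without uncrushed replicate 2 and -2.35 without day 5 replicate 2, neither called (adjusted p 0.0731 and 0.0902), and -4.66 without day 5 replicate 1. Kcnj9 (Kir3.3, a G protein-gated channel) fell in Schwann cells, its log2 fold changes being -1.47 at day 3 and -1.11 on day 5, from 3.18 and 4.28 to 1.07 and 1.52 and then 1.81 and 1.59. At day 7, at 2.67 and 3.01, its log2 fold change was -0.37 (adjusted p 0.252). The record of Igsf8 overlaps that of Kcnj9, whether their exons overlap was not checked, and reads of Igsf8 may be among the counts of Kcnj9. Kcnj12 (Kir2.2), named after its values were seen, fell at day 3 from 1.56 and 2.07 to 0.604 and 0.463 (-1.47, adjusted p 0.025), not called without uncrushed replicate 2 (adjusted p 0.117) or day 3 replicate 2 (adjusted p 0.150).

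Of the 5 two-pore channels tested in Schwann cells, 3 fell at day 3, 3 on day 5 and 2 at day 7, where 25.7%, 25.6% and 21.9% of all genes fell. Kcnk1 encodes TWIK1, a background channel. It stood at 28.7 and 29.9 in uncrushed Schwann cells, 4.66 and 4.68 at day 3, 2.92 and 2.22 on day 5, and 4.13 and 3.22 at day 7. No crushed library came near the uncrushed pair. The log2 fold changes of Kcnk1 were -2.62, -3.48 and -2.97 (SE 0.161, 0.171 and 0.167, adjusted p 1.03e-06, 3.79e-07 and 1.14e-06). In whole nerve it went from 48.5 and 51.6 to 2.81 and 2.44 at day 3, 1.08 and 1.26 on day 5, and 4.05 and 2.74 at day 7. Kcnk1 changed there by -4.33, -5.51 and -3.98 (adjusted p 2.77e-08, 1.79e-08 and 1.29e-07).

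Kcnk6, the related TWIK2 channel, fell in Schwann cells and did not pass the test in whole nerve. Its FPKM was 3.09 and 2.01 in uncrushed Schwann cells, 0.218 and 0.392 at day 3, 0.0289 and 0.207 on day 5, and 0.351 and 0.403 at day 7. All crushed libraries lay below the uncrushed pair. These levels rest on 76 and 43 counts before the crush and on 1 to 18 counts after it. Kcnk6 changed by -2.97 at day 3 (SE 0.568, adjusted p 0.00175), by -4.42 on day 5 (adjusted p 3.80e-04) and by -2.74 at day 7 (adjusted p 0.00354). Without day 5 replicate 1 the day 5 value was -3.61. Without day 5 replicate 2 it was -6.17, but the library left is at the floor, so its size depends on the prior count. In whole nerve it lay between 9.42 and 10.7 in all 8 libraries, with log2 fold changes of -0.10, -0.25 and -0.18 (SE 0.13, 0.131 and 0.132, adjusted p 0.558, 0.166 and 0.334). Of the 6 pericyte and smooth muscle markers, Pdgfrb, Tagln and Cspg4 were called lower with Kcnk6 in Schwann cells on each day. The list summed to 55.1 and 63.1 before the crush, with Pdgfrb at 29.2 and 32.5, and to 9.82 to 21.8 after it. Acta2, Myh11 and Rgs5 were not called on any day (0.84, 0.55 and -0.24 at day 3, adjusted p 0.315, 0.169 and 0.770), and the part of these markers in the fall of Kcnk6 was not tested. A protein-coding record, LOC103689966, overlaps Kcnk6. Kcnk5 (TASK2, an acid-sensitive background channel) was 1.00 and 1.24 in uncrushed Schwann cells and 0.426 and 0.654 at day 3. Its fall (-0.99, adjusted p 0.0256) was lost with DESeq2 (adjusted p 0.0653), without uncrushed replicate 2 (-0.87, adjusted p 0.104) and without day 3 replicate 1 (-0.76, adjusted p 0.119).

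Of 5 calcium-activated members tested in Schwann cells, 2 were higher and 1 lower at day 3, where 26.9% and 25.7% of all genes were. On each of days 5 and 7, 1 was higher and 1 lower. These counts on the later days are below the shares of all genes on day 5 (29.0% higher and 25.6% lower) and at day 7 (25.0% and 21.9%), and with DESeq2 none was called at day 7. Kcnn3 encodes SK3, a small-conductance channel opened by calcium. It was 5.24 and 4.32 in uncrushed cells, 2.05 and 1.75 at day 3, 3.69 and 2.40 on day 5, and 2.76 and 3.45 at day 7. All crushed libraries were lower than both uncrushed ones. Its day 3 value was -1.37 (SE 0.222, adjusted p 6.13e-04), and that call held without each library in turn. The day 5 value of -0.67 (adjusted p 0.0244) was not called without uncrushed replicate 1 (-0.51, adjusted p 0.136) or without day 5 replicate 2 (-0.39, adjusted p 0.179). At day 7 the value of -0.60 (adjusted p 0.045) was lost without uncrushed replicate 1 (-0.44, adjusted p 0.213) and without day 7 replicate 1 (-0.45, adjusted p 0.235) or replicate 2 (-0.74, adjusted p 0.0615).

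Kcnt1, the sodium-activated Slack channel, rose. It went from 0.289 and 0.160 in uncrushed Schwann cells to 0.722 and 1.05 at day 3, 0.646 and 0.716 on day 5, and 0.389 and 0.563 at day 7. Every crushed library exceeded the uncrushed pair. Kcnt1 was 2.01 higher at day 3 (SE 0.348, adjusted p 9.68e-04), 1.58 on day 5 (adjusted p 0.00407) and 1.06 at day 7 (adjusted p 0.036) on the log2 scale. The day 7 call was lost with DESeq2 (adjusted p 0.0722), without uncrushed replicate 2 (0.70, adjusted p 0.191) and without day 7 replicate 2 (0.79, adjusted p 0.173). Kcnn4, the intermediate-conductance channel also known from blood cells, rose at day 3 in both tissues. In Schwann cells it was 0.174 and 0.511 before the crush and 1.21 and 1.21 at day 3 (log2 1.87, adjusted p 0.0204), and in whole nerve 0.305 and 0.523 before and 1.37 and 1.23 at day 3 (log2 1.63, adjusted p 0.0266). Neither rise of Kcnn4 was called with DESeq2 (adjusted p 0.0664 and 0.0820). In Schwann cells it was not called without uncrushed replicate 1 (1.27, adjusted p 0.141), day 3 replicate 1 (adjusted p 0.0656) or day 3 replicate 2 (adjusted p 0.0765), and it was 2.75 without uncrushed replicate 2. In whole nerve it was not called without uncrushed replicate 1 (1.25, adjusted p 0.162) or either day 3 library (adjusted p 0.0958 and 0.0753). Macrophage markers in the Schwann cell libraries summed to 2.94 and 14.5 at day 3, while Kcnn4 was 1.21 in both, and in whole nerve all 8 macrophage markers rose at day 3; their part was not tested. Kcnn1 (SK1) was 0.270 and 0.892 in uncrushed Schwann cells and 1.00 to 1.74 after crush, and was called on no day (adjusted p 0.0912, 0.0655 and 0.0835). Kcnma1, the large-conductance BK pore, was at most 0.170 in Schwann cells and 0.281 in whole nerve.

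Of the auxiliary subunits, none of the 7 tested in Schwann cells was called at day 3, where 1 passed an unadjusted p of 0.05 in edgeR and 1 was called with DESeq2, and 1 rose and 1 fell on day 5 and 2 rose and 1 fell at day 7. Of all genes 29.0% rose and 25.6% fell on day 5, and 25.0% and 21.9% at day 7, so these counts are near or below the background. Kcnip3 encodes a calcium-binding partner of Kv4 channels. In Schwann cells it stood at 0.762 and 1.01 before the crush, 1.21 and 1.53 at day 3, 2.75 and 3.15 on day 5, and 2.57 and 2.80 at day 7. All 6 crushed libraries were above the uncrushed ones. Kcnip3 was 0.85 higher at day 3 (adjusted p 0.117), and it rose by 2.06 on day 5 (SE 0.406, adjusted p 0.00205) and 1.99 at day 7 (SE 0.41, adjusted p 0.00324). The Kv4 pore Kcnd3 and its partner Kcnip3 went opposite ways on those days. In whole nerve Kcnip3 lay between 2.02 and 5.70 with overlapping groups.

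Kcnip4, another Kv4 partner, was at 3 or fewer counts in both uncrushed Schwann cell libraries and at least 3.45-fold higher at day 7, with 16 and 9 counts (adjusted p 0.0245). This call was lost with DESeq2 (adjusted p 0.126), without a filter on low counts (adjusted p 0.0519), without either uncrushed library (adjusted p 0.101 and 0.148) and without either day 7 library (adjusted p 0.126 and 0.0698). Kcnmb4, the beta 4 subunit of BK channels, was 6.60 and 5.11 in uncrushed Schwann cells and 2.68 and 1.3 at day 7. It fell (-1.51, adjusted p 0.0163), but was not called without uncrushed replicate 1 (-1.32, adjusted p 0.0778) or day 7 replicate 2 (-1.12, adjusted p 0.0958), and was -2.14 without day 7 replicate 1. Kcne2, a single-span subunit, fell on day 5 from 1.84 and 2.80 to 0.540 and 1.21 (-1.42, adjusted p 0.0373). The call for Kcne2 was lost without uncrushed replicate 1 (adjusted p 0.0503), uncrushed replicate 2 (adjusted p 0.153) or day 5 replicate 1 (-0.97, adjusted p 0.206), and the value was -2.01 without day 5 replicate 2. Kcnab2, the Kv beta 2 subunit that binds Kv1 channels, was 0.386 to 0.678 in Schwann cells and was not called on any day (adjusted p 0.0737, 0.0529 and 0.137).

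From day 3 to day 7 more members rose than fell in Schwann cells: 10 of 38 were higher and 3 lower, where 10.2% of all genes were higher and 10.7% lower. Besides Kcna1 (1.16, adjusted p 8.43e-04), Kcna2 and Kcnj10, Kcnj11 was at least 5.78-fold higher at day 7 than at day 3. The 3 that fell were Kcnd3, Kcng1 and Kcnn4, the last at -1.92 (adjusted p 0.0376) and not called with DESeq2 (adjusted p 0.0893) or without any one of the 4 libraries (adjusted p 0.118 to 0.156). Leaving out 1 library brought the count of 13 called members to 7 or 8. In whole nerve 4 of 52 members were higher and 4 lower, against 9.85% and 11.4% of all genes, and DESeq2 gave 4 higher and 2 lower. The 4 that rose were Kcna1 (1.46, adjusted p 0.0033), Kcna2 (2.97), Kcnj10 (4.0, adjusted p 3.77e-07) and Kcnj13 (1.28, adjusted p 0.00213).

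In whole nerve, which holds every cell of the tissue, 14 of 52 tested members fell and 6 rose at day 3, against 22.5% and 23.1% of all genes. On day 5, 15 fell and 6 rose, against 19.5% and 18.9%, with 13 called in place of 21 when day 5 replicate 2 was left out, and at day 7, 12 fell and 4 rose, against 15.9% and 15.4%. The members' medians were -0.48, -0.18 and -0.13, and those of all genes 0.00, -0.01 and 0.02. Fallen on all 3 days were Kcna1, Kcna2, Kcna5, Kcnd3, Kcnh8, Kcnip4, Kcnk1, Kcnk2 and Kcnmb4, and risen on all 3 were Kcng1, Kcnh1 and Kcnj15. Of the members that fell on all 3 days, 5 did so in both tissues, out of 10 in Schwann cells and 9 in whole nerve (50% and 55.6%). Of all genes, 11.3% fell and 10.8% rose on all 3 days in whole nerve, and those that fell in both tissues were 29.7% of the list of Schwann cells and 40.5% of that of whole nerve. Of the 3 that rose in each tissue, Kcng1 and Kcnh1 did so in both, where the genes that rose in both were 28.9% and 46.8% of the 2 lists. Calcium-activated channels in whole nerve gave 1 rise and 1 fall at day 3 and no call at days 5 and 7, where edgeR had 0 and 1 members with an unadjusted p under 0.05 and DESeq2 called none.

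**Figure D3:**
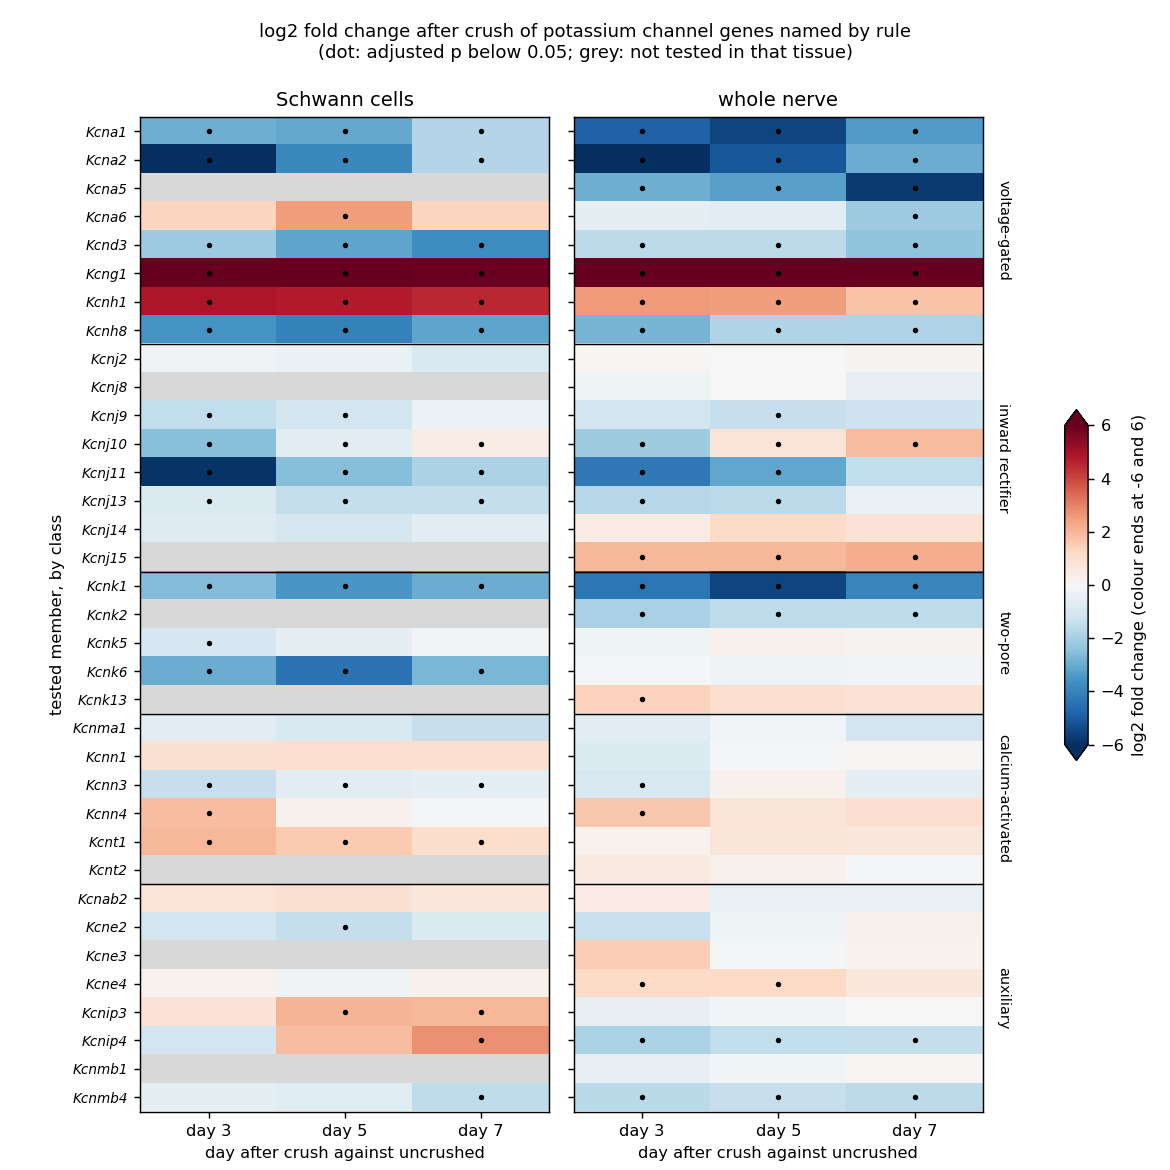
Log2 fold change against uncrushed tissue for the 35 tested members that the naming rule picked, in rows by class, at days 3, 5 and 7 in Schwann cells and in whole nerve. Colour runs from blue (lower) to red (higher) and ends at 6 in either direction, a dot marks a called value, grey marks a member not tested in that tissue, and values against a group at the floor depend on the prior count. In the upper, voltage-gated rows most dots stand on blue cells, while Kcng1 and Kcnh1 are red in all 6 columns.

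Several of the whole nerve changes concern members that Schwann cells hardly held. Kcnj15 encodes Kir4.2, an inward rectifier. Whole nerve held 0.866 and 0.95 before the crush, 3.55 and 3.79 at day 3, 3.49 and 4.05 on day 5, and 4.44 and 4.28 at day 7. All crushed libraries lay above the uncrushed pair, and the rises of Kcnj15 were 1.98, 1.97 and 2.18 (adjusted p 6.05e-06, 8.85e-06 and 6.20e-06). In Schwann cells Kcnj15 did not exceed 0.151. Macrophage markers in whole nerve summed to 155 and 176 before the crush, 546 and 559 at day 3, and 342 and 346 at day 7. From day 3 to day 7 all 8 of them fell, while Kcnj15 changed by 0.20 (adjusted p 0.349). The part of these markers in the rise of Kcnj15 was not tested. Kcnk2, the mechanosensitive TREK1 channel, was 5.10 and 7.47 in uncrushed whole nerve, 1.92 and 1.47 at day 3, 1.90 and 2.72 on day 5, and 2.20 and 2.41 at day 7. The crushed libraries did not reach the uncrushed ones. Kcnk2 changed by -1.94, -1.54 and -1.53 (adjusted p 1.18e-04, 7.13e-04 and 9.99e-04) and was at 3 or fewer counts in every Schwann cell library.

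Kcna5, the Kv1.5 subunit, stood at 1.63 and 1.07 in uncrushed whole nerve and between 0 and 0.224 after crush. Its log2 fold changes were -2.92 at day 3 and -3.27 on day 5 (adjusted p 0.00303 and 0.0028), and at day 7 it was at least 9.99-fold lower. Kcnmb4 fell there, with log2 fold changes of -1.64, -1.38 and -1.55, from 6.64 and 7.28 to between 1.97 and 3.57, and the day 5 call was lost without day 5 replicate 2 (-1.07, adjusted p 0.0638). Kcnip4 went from 6.62 and 3.29 to between 1.13 and 2.20. Its log2 fold changes were -1.88, -1.46 and -1.42, and without uncrushed replicate 1, the higher of the pair, they were -1.26 (adjusted p 0.00839), -0.84 (adjusted p 0.0580) and -0.80 (adjusted p 0.0864). The day 7 value of Kcnip4 was also not called without day 7 replicate 2 (-1.26, adjusted p 0.0511). Kcne4, an inhibitory single-span subunit of Kv1 channels, rose by 1.15 and 1.21 at days 3 and 5, from 1.98 and 2.17 to 3.51 and 5.34 and then 4.87 and 4.12. Kcnk13 (THIK1, a background channel known from microglia) rose at day 3 from 0.549 and 0.256 to 1.08 and 0.835 (1.38, adjusted p 0.0323), which was not called with DESeq2 (adjusted p 0.0883), without uncrushed replicate 2 (1.05, adjusted p 0.148) or without day 3 replicate 1 (adjusted p 0.133) or replicate 2 (adjusted p 0.0640). Skeletal muscle markers were called lower in whole nerve, 4 of 4 at days 3 and 5, and their part in the falls was not tested.

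Set against whole nerve at the same time point, most called members were lower in Schwann cells, many of them near 0 there. In uncrushed tissue 24 of 54 tested members were lower in Schwann cells and 9 higher, against 35.3% and 29.1% of all genes. The counts were 24 and 11 at day 3 (32.8% and 24.5%), 24 and 11 on day 5 (28.4% and 23.2%), and 22 and 8 at day 7 (28.7% and 22.4%). Member medians were -0.81, -0.71, -0.63 and -0.50, and those of all genes -0.10, -0.11, -0.03 and -0.03. At all 4 time points 5 members were higher in Schwann cells, namely Kcnd3, Kcnh8, Kcnj9, Kcnj10 and Kcnt1, and 16 were higher in whole nerve, against 11.9% and 18.5% of all genes. Among those 16, Kcnh2, Kcnk2, Kcnk3, Kcnk13, Kcnq5 and Kcnt2 were at 3 or fewer counts in every Schwann cell library. A filter of at least 10 counts in every library takes out the members that Schwann cells hardly held, so the split it leaves is set in part by the filter, with 4 higher and 6 lower in uncrushed Schwann cells, 6 and 3 at day 3, 7 and 3 on day 5, and 5 and 3 at day 7.

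Kcnd3 was 2.78 higher in uncrushed Schwann cells on the log2 scale (SE 0.174, adjusted p 7.10e-09), 2.06 at day 3, 1.03 on day 5 and 1.35 at day 7. Kcnh8 was 3.28 higher before the crush (adjusted p 3.55e-07), 2.36 at day 3, 0.92 on day 5 and 1.82 at day 7. Its day 3 difference was 3.01 without whole nerve day 3 replicate 2, its day 7 difference 2.52 without whole nerve day 7 replicate 2, and its day 5 difference (adjusted p 0.042) was lost without Schwann cell day 5 replicate 1 (0.82, adjusted p 0.151) or replicate 2 (1.00, adjusted p 0.0771) and without whole nerve day 5 replicate 2 (0.56, adjusted p 0.299). Kcnj10 differed by 2.46 before the crush and by 1.95, 0.87 and 0.89 on the 3 days. Kcnj9 was higher by 1.63, 1.17, 1.82 and 2.40, with the day 3 call lost without Schwann cell day 3 replicate 2 (0.87, adjusted p 0.0862) or whole nerve day 3 replicate 2 (0.90, adjusted p 0.0797). Kcnt1 was 1.32 higher before the crush (adjusted p 0.0378) and 2.99, 2.02 and 1.56 after it. Its uncrushed difference was not called with DESeq2 (adjusted p 0.0576), without Schwann cell replicate 1 (0.82, adjusted p 0.278) or without whole nerve replicate 1 (0.59, adjusted p 0.388), and was 2.30 without whole nerve replicate 2. The day 7 difference of Kcnt1 was lost without Schwann cell day 7 replicate 2 (adjusted p 0.0533) or whole nerve day 7 replicate 2 (adjusted p 0.0650). Kcnj14 (Kir2.4) had 31 and 23 counts in uncrushed Schwann cells and 3 and 3 in whole nerve, at least 6.83-fold higher in Schwann cells.

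On the other side stood channels known from vessels and other cells of the nerve. Kcnj8 encodes Kir6.1, the ATP-sensitive pore of vascular muscle and pericytes. It lay between 7.76 and 13.1 in whole nerve and between 0 and 0.401 in Schwann cells, without overlap. The log2 difference was -5.06 before the crush (adjusted p 4.50e-07), and Schwann cells were at least 59.1-fold lower at day 7. Its partner Abcc9, which encodes SUR2, lay between 12.8 and 22.3 in whole nerve and between 0.104 and 0.704 in Schwann cells. Kcnj2 (Kir2.1, of endothelium and muscle) was 1.72 to 2.75 in whole nerve and 0.0594 to 0.367 in Schwann cells, with log2 differences of -3.12, -3.46, -3.65 and -4.33, and the day 3 value was -4.96 without Schwann cell day 3 replicate 2. Kcnmb1, the beta 1 subunit of smooth muscle BK channels, was 1.33 to 5.86 in whole nerve and 0 to 0.302 in Schwann cells, at least 30.0-fold lower there before the crush. Kcnt2 (Slick) lay between 0.711 and 1.25 in whole nerve, at least 15.8-fold above uncrushed Schwann cells and 35.9-fold above them at day 3. Kcnk2 was at least 84.5-fold lower in uncrushed Schwann cells, and Kcnk13 at least 3.75-fold lower there (not called without whole nerve replicate 1, adjusted p 0.0791). Kcne3, a single-span subunit, was 0.256 and 1.27 in uncrushed whole nerve and did not exceed 0.191 in Schwann cells. Its day 3 difference was -4.01 (adjusted p 0.00164), -3.32 without Schwann cell day 3 replicate 1 and -7.89 without replicate 2. The last is set against a library at the floor, so its size depends on the prior count. Overlapping records, whose exons were not compared, may limit a few of these members: Kcnip1 overlaps Kcnmb1, LOC120096345 overlaps Kcnk2, Nphp4 overlaps Kcnab2, and noncoding records overlap Kcnd3, Kcnh8 and Kcnn3.

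**Figure D4:**
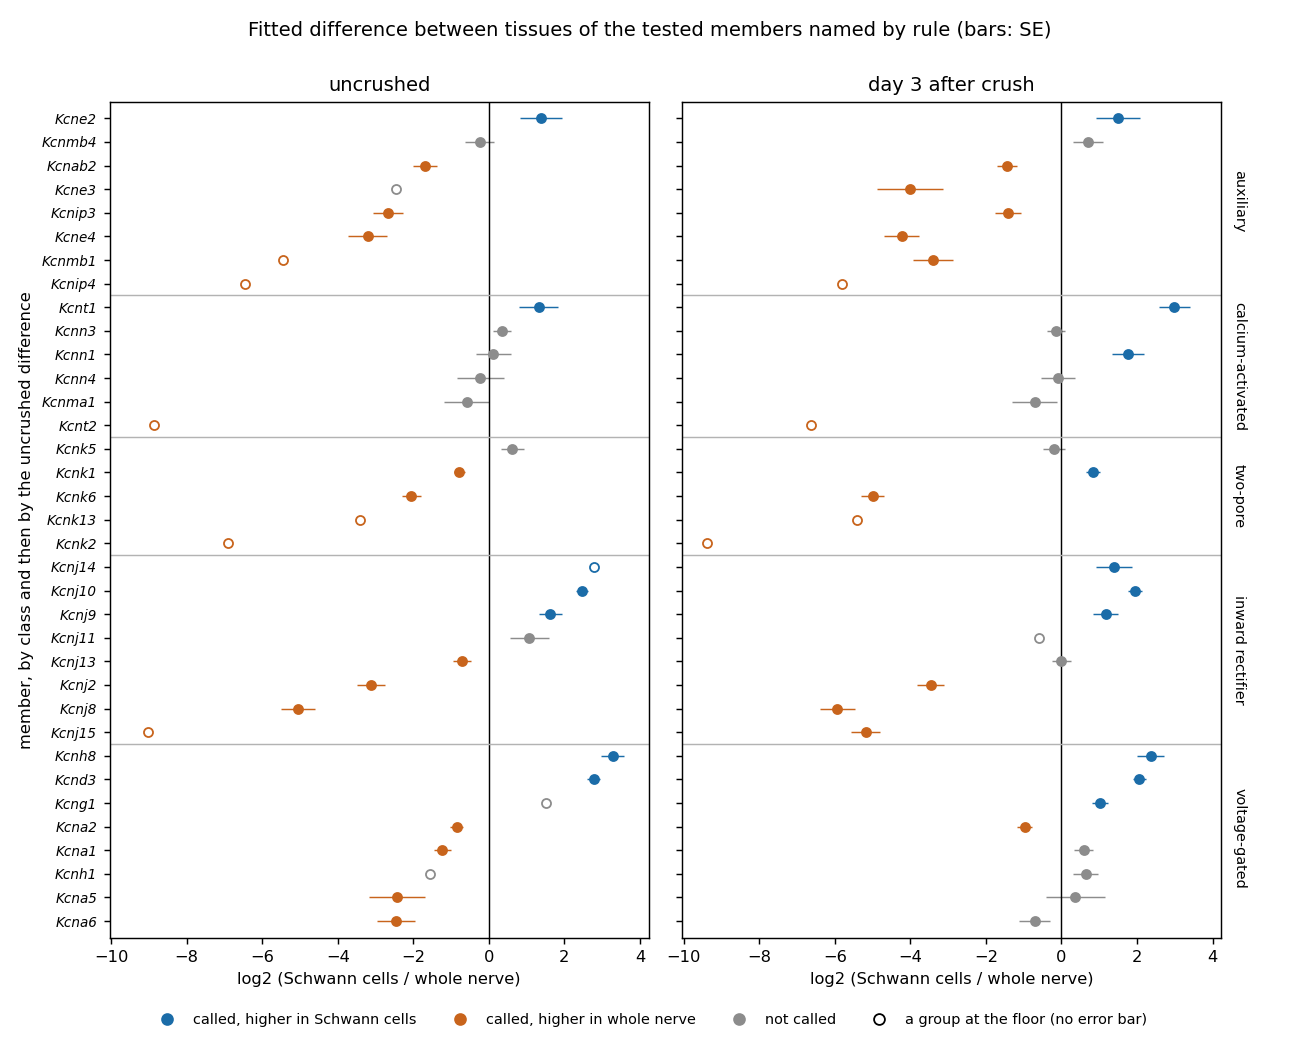
Log2 level in Schwann cells over whole nerve for the 35 tested members that the naming rule picked, uncrushed on the left and at day 3 on the right, with bars for the standard error and open symbols where 1 group is at the floor, whose values depend on the prior count. Kcnd3, Kcnh8 and Kcnj10 stand to the right of 0 in both panels, and Kcnk6 moves from -2.05 to -5.00.

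Kcna1 and Kcnk1 changed sides between the tissues. Kcna1 was lower in uncrushed Schwann cells than in whole nerve (-1.23, SE 0.22, adjusted p 2.08e-04), 0.59 higher at day 3 (adjusted p 0.0598), 1.09 higher on day 5 (adjusted p 0.00410) and 0.27 higher at day 7 (adjusted p 0.352). The day 5 value became 0.88 (adjusted p 0.0523) without whole nerve day 5 replicate 1. Kcnk1 was -0.78 in uncrushed tissue (adjusted p 4.99e-04), 0.83 at day 3 (adjusted p 0.00117), 1.13 on day 5 (adjusted p 5.05e-04) and 0.12 at day 7 (adjusted p 0.634).

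The crush effect was tested for a difference between the tissues. Schwann cells had the higher log2 fold change for 2 members and the lower one for 4 at day 3 (12.3% and 13.7% of all genes), for 8 and 8 on day 5 (12.6% and 14.9%) and for 7 and 6 at day 7 (11.6% and 14.4%). Values are the Schwann cell fold change minus that of whole nerve. Kcna1, Kcnd3, Kcnk1 and Kcnk6 differed on all 3 days. Kcna1 gave 1.82, 2.32 and 1.51 (adjusted p 0.00103, 2.09e-04 and 0.00319). For Kcnk1 the values were 1.61, 1.91 and 0.89 (adjusted p 1.67e-04, 1.01e-04 and 0.0144), the last not called without whole nerve uncrushed replicate 2 (adjusted p 0.0502), Schwann cell day 7 replicate 1 (0.69, adjusted p 0.0965) or whole nerve day 7 replicate 2 (0.64, adjusted p 0.0708). Kcnk6 gave -2.95, -4.31 and -2.69 (adjusted p 1.00e-04, 1.87e-05 and 3.10e-04), with -3.49 and -6.05 on day 5 without Schwann cell day 5 replicate 1 or 2. The -6.05 rests on a Schwann cell library at the floor, so its size depends on the prior count. Kcnd3 gave -0.72, -1.74 and -1.43, and its day 3 call (adjusted p 0.0377) was lost without Schwann cell uncrushed replicate 2, Schwann cell day 3 replicate 2, whole nerve uncrushed replicate 1 or either whole nerve day 3 library (-0.53 to -0.76, adjusted p 0.0672 to 0.159). The other members that differed at day 3 were Kcns3 (-2.24, adjusted p 0.0351, not called in the fits without 1 library except that without Schwann cell uncrushed replicate 2) and Kcng2, at 0 counts in the day 3 Schwann cell libraries and at 42 and 47 in those of whole nerve (adjusted p 3.12e-04). Kcnj10 differed at days 5 and 7 by -1.59 and -1.57 (adjusted p 8.12e-05 and 8.43e-05), and its day 5 effects ran opposite ways, -0.68 in Schwann cells and 0.78 in whole nerve.

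The genes around the channels were read from 3 lists. Of 14 channel partners and related cation channels, 7 were tested in Schwann cells, of which 4 fell at day 3, 4 on day 5 and 3 at day 7. For these lists the shares of all genes that fell in Schwann cells were 25.7%, 25.6% and 21.9%, and those that rose 26.9%, 29.0% and 25.0%. Kcnrg, a regulator of Kv1 assembly, was 12.7 and 10.0 before the crush and 4.38 and 3.10 at day 3 (-1.60, adjusted p 8.32e-04). Of the 7 proteins of the juxtaparanode, in Schwann cells 1 rose and 2 fell at day 3, and 4 rose and 2 fell at days 5 and 7. In whole nerve 5, 3 and 2 of the 7 fell on the 3 days, where 22.5%, 19.5% and 15.9% of all genes fell. Cntnap2, which anchors Kv1 channels, was 0.17 higher at day 3 (adjusted p 0.676) and rose by 1.22 and 2.08 at days 5 and 7, from 0.222 and 0.401 before the crush to 1.37 and 1.20 at day 7. Epb41l3, the band 4.1 protein of the axoglial junction, had log2 fold changes of -1.41, -1.74 and -2.05. Of 14 genes of potassium transport, 9 were tested in Schwann cells, with 2 higher and 4 lower at day 3, 2 and 3 on day 5, and 3 and 4 at day 7.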

How the data were processed

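The authors aligned paired reads with STAR to Rnor_6.0 and estimated expected counts with RSEM; the deposited tables hold, per library, these expected counts for 31038 genes with no filter. The deposited FPKM and TPM were made by the authors in the same RSEM run, TPM used only to check the tables. The submitters' processing notes also name CASAVA. Amplification used no molecular identifiers, so floors cover counting error only. A deposited table of co-expression modules with FPKM in 8 columns was left unused, since its column names match the labels of both tissues, though the study's text places its module analysis in Schwann cells.

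Expected counts were rounded and fitted in edgeR 4.0.16 (limma 3.58.1, R 4.3.3) by quasi-likelihood after TMM and filterByExpr, with Benjamini-Hochberg adjustment at 0.05 over 14961 genes in the fit of 8 Schwann cell libraries, 15831 in that of 8 whole nerve libraries and 16829 in that of all 16, which gave the tissue differences and interactions. A standard error is the absolute log2 fold change over the root of F. A group with 3 counts or fewer in each library is at the floor, and folds against it are bounds. DESeq2 1.42.0, upper quartile scaling, other filters, a replicate block, fits of the compared groups and leaving out each library were the alternatives. The code was tested on simulated data. Tables and plots used Python 3.11.15, numpy 2.4.6, pandas 2.3.3 and matplotlib 3.10.9.

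Groups and replicates come from the labels. Members, classes and lists were chosen with earlier results of these data known. Named are, per class and tissue, the 3 members with the highest mean FPKM, the 5 called members per direction that had the smallest adjusted p in each crush and tissue comparison, those whose crush effect differed between tissues on all 3 days, and members with a textbook place in nerve. Others are marked as chosen after their values were seen, and a few genes are not reported here. Promoters come from RefSeq on GRCr8, and no genome was used.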

Additional observations from a re-analysis of the deposited data

Results flagged for a closer look

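The results below were picked out, for members named by the rule and for Kcng2 and Kcns3, named after their values were seen, because the log2 fold change after crush differed between Schwann cells and whole nerve in a direct test of the difference (edgeR, 16 libraries, adjusted p under 0.05); positive values are higher in Schwann cells. At day 3 these were Kcna1 (1.82), Kcnd3 (-0.72), Kcng2 (-7.50, with Schwann cells at 0 counts), Kcnk1 (1.61), Kcnk6 (-2.95) and Kcns3 (-2.24).

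At day 5 the voltage-gated members were Kcna1 (2.32), Kcna2 (1.10), Kcna5 (3.25), Kcna6 (3.02), Kcnd3 (-1.74), Kcng2 (-2.22) and Kcnh8 (-2.37). Kcng2 was not called with DESeq2 (adjusted p 0.0811) or without Schwann cell uncrushed replicate 2, either Schwann cell day 5 library, whole nerve uncrushed replicate 2 or whole nerve day 5 replicate 2 (-1.52 to -2.28). The inward rectifiers were Kcnj10 (-1.59) and Kcnj14 (-2.29), the two-pore channels Kcnk1 (1.91) and Kcnk6 (-4.31), and the calcium-activated channel Kcnn3 (-1.08). Among auxiliary subunits the values were 1.22 for Kcnab2, 2.11 for Kcnip3 and 3.17 for Kcnip4. Kcnab2 and Kcnj14 were not called with DESeq2 (adjusted p 0.139 and 0.096) or with no filter on low counts (adjusted p 0.130 and 0.0765). The Kcna5 call was lost with DESeq2 (adjusted p 0.0916) and in each fit without 1 library (1.97 to 3.57) except that without Schwann cell day 5 replicate 2 (3.89). Kcnab2 lost its call in all 8 such fits (1.14 to 1.3), Kcnj14 in 6 (-1.93 to -2.55, called only without Schwann cell uncrushed replicate 2 or day 5 replicate 1). Kcnn3 lost its call without Schwann cell uncrushed replicate 1 or day 5 replicate 2, and without whole nerve uncrushed replicate 2 or day 5 replicate 1 (-0.81 to -1.0).

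At day 7 they were Kcna1 (1.51), Kcna2 (1.10), Kcna6 (3.32), Kcnd3 (-1.43), Kcnh1 (2.67), Kcnh8 (-1.47), Kcnip3 (1.87), Kcnip4 (4.05), Kcnj8 (-5.49), Kcnj10 (-1.57), Kcnj13 (-1.12), Kcnk1 (0.89) and Kcnk6 (-2.69). Kcnh1 was 0.75 (adjusted p 0.814) without whole nerve uncrushed replicate 1, and was also not called without either Schwann cell uncrushed library, Schwann cell day 7 replicate 1 or whole nerve day 7 replicate 1. Kcnh8 lost its call without replicate 1 of either uncrushed group, either Schwann cell day 7 library or whole nerve day 7 replicate 2 (-0.76 to -1.56). Kcnj13 lost it without either Schwann cell uncrushed library, whole nerve uncrushed replicate 1, Schwann cell day 7 replicate 1 or whole nerve day 7 replicate 2 (-0.83 to -1.18). Kcnip3 was not called without Schwann cell uncrushed replicate 1, whole nerve uncrushed replicate 2 or whole nerve day 7 replicate 1 (1.53 to 1.76). Kcnj8 was not called without Schwann cell uncrushed replicate 2 or either Schwann cell day 7 library (-5.15 to -5.50). For Kcng2, Kcnj8, Kcnj14, Kcnh1, Kcnip4, Kcna5 and, on day 5, Kcnk6 at least 1 group was at or near the floor, so the size of the value depends on the prior count.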

How the results depend on the processing

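Of 5077 values recomputed for named members, 4798 kept their side of the threshold, 209 lost their call and 70 gained one. None of the lost calls changed direction. A filter of at least 10 counts in every library cut the called members to 10 from 17 for Schwann cells at day 7 and to 7 from 13 between day 7 and day 3; between tissues it left 10, 9, 10 and 8 of 33, 35, 35 and 30 in uncrushed tissue and at days 3, 5 and 7, and for the difference of crush effects 8 of 16 at day 5 and 7 of 13 at day 7, because fewer members are tested. It takes out members near 0 in Schwann cells, and with it the called members between tissues split 6 higher and 3 lower in Schwann cells at day 3, 7 and 3 on day 5 and 5 and 3 at day 7, against 11 and 24, 11 and 24, and 8 and 22. Leaving out 1 library gave 16 to 22, 16 to 21 and 13 to 17 called members on the 3 days in Schwann cells (22, 21 and 17 with all), and 7 to 8 between day 7 and day 3 (13 with all). In whole nerve the ranges were 17 to 21, 13 to 18 and 11 to 16 (20, 21 and 16 with all), 13 being without day 5 replicate 2, and 6 to 8 between day 7 and day 3. Between tissues they were 27 to 31, 30 to 35, 27 to 30 and 24 to 27, and for the difference of crush effects 4 to 6, 11 to 14 and 9 to 13. Same-numbered libraries did not deviate together (correlations of -0.0552 to 0.0758 over 28 pairs of groups). The main fits did not pair samples by number. With 2 libraries per group, these correlations cannot show whether libraries were prepared together. With the replicate block 21, 20 and 15 members were called in Schwann cells on the 3 days. The FPKM of the module table was planned as an alternative and not run. Members under about 10 counts per library limit what can be called.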
